A study of Mus musculus with 12 samples.

Results

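The proteins of the small (40S) ribosomal subunit are encoded by the mRNAs described here, measured in adult mouse dorsal root ganglion (DRG) sensory neurons. Members were all rows of the deposited count table whose Ensembl ID maps to Rpsa or to a symbol made of Rps, a number from 2 to 29 and optional letters, without Rps27a, the S6 kinases and symbols marked as pseudogenes. This gave 37 of 14675 rows. Of these, 30 encode canonical subunit proteins and 7 carry a like name. The 7 are Rps27l and Rps27rt, which encode proteins akin to RPS27, Rps4l, Rps12l1, Rps3a2 and Rps3a3, which RefSeq classes as pseudogenes, and Rps19bp1, which encodes a binding protein of RPS19 and not a ribosomal protein. The low-count filter passed 35 of the 37. Rps12l1 and Rps3a2, with at most 20 and 23 counts in any group, did not pass.

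The mice were of the genotype RPL22HA+/+;Advillin-Cre+, the RiboTag system. Advillin-Cre, active in peripheral sensory neurons, switches on a copy of the large-subunit protein RPL22 that carries an HA tag, and an anti-HA pull-down (IP) then enriches the ribosomes of those neurons. Total RNA (input) also holds RNA of every other cell of the ganglion. Each fraction was measured after AAV-shGpr151, a virus with a short hairpin RNA against Gpr151, and after this virus together with AAV-e5'UTR (called e5UTR below). That made 4 groups with 3 deposited columns each, 12 in all. Every group carried the same tag, Cre and hairpin, so the level of the targeted gene checks none of the labels. Libraries with a control hairpin were not analysed here. The nature of the e5'UTR insert is not explained in the labels. The design text describes neurons in culture from mice with an earlier sciatic nerve injury, the extraction protocol describes fresh ganglia, and neither ages nor numbers of animals are stated.

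Each ribosome carries 1 small subunit, which binds the mRNA, scans for the start codon and holds the decoding site. Its head and body move against each other during translation, and the mRNA passes between them. The mRNAs for ribosomal proteins are abundant, short and mostly begin with a run of pyrimidines, the 5' terminal oligopyrimidine (TOP) motif, through which the kinase mTOR and the RNA-binding protein LARP1 adjust their translation. In neurons, ribosomal protein mRNAs are among those found in axons.

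The start of the RNA is the sequence by which this family is known, so a few starts are shown first. A RefSeq window of 250 bases before to 50 bases after the annotated start (GRCm38.p6, another build than that of the counts) was found for 26 of the 37 members. Capitals mark the pyrimidine run at the annotated first base, in 4 members with the longest such runs.
Rps10: CTTCCTTTCCagcctccgcctcgga
Rps6: CTCTTTTTCgtgacgcctcccaggc
Rps18: CTCTCTTCCacaggaggcctacacg
Rps15a: CTTCCCTCgccggtgagtgagtgtt
These windows lie at chr17:27635195-27635494, chr4:86857318-86857617, chr17:33955616-33955915 and chr7:118116098-118116397, all on the minus strand. A start with C and at least 4 further pyrimidines was found in 7 of the 26 members (26.9%), in 3.31% of the 5702 tested genes with a window and in 3.01% of all 27025 genes with one. A start annotated a few bases off would hide the run, and no start site was measured here.

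The same window was also searched for CTTCCG on both strands (CGGAAG on the other), a core often bound by ETS factors. It was present in 20 of the 26 members (76.9%), in 38.1% of tested genes and in 18.8% of all genes, over the same 300 bases. In 7 members it lay within the last 28 bases before the start, and the share of other genes with a match there was not counted. Within 25 bases either side of the start, on the transcribed strand only, CTTCCG was in 2 of the 26 members (7.69%) and 3.32% of all genes. The 4 canonical members with the match nearest to the start are shown, with the match in capitals.
Rps18: tatataagacttatacgtcaCTTCCGct
Rps3a1: tgtcgcgagattcttaaagcCGGAAGgg
Rps6: tgtgccctgggttaagCGGAAGtcgggc
Rps7: tcttttcagaagagCTTCCGgtttccac
The Rps3a1 window lies at chr3:86142619-86142918 and the Rps7 window at chr12:28635904-28636203, both on the minus strand. The other motifs searched, again on both strands, were less set apart. ATGGCG was in 26.9% of members and 19% of tested genes, CTTTCC in 42.3% and 30.3%, CTTTTC in 23.1% and 21.5%, and TATAAA in 7.69% and 8.8%. A match of letters is a description and not evidence of binding.

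Column totals were 975403 to 985277 estimated counts in input and 1381220 to 1517685 in IP. Within a group the 3 columns differed by little more than counting noise, so they were summed to 1 pool and each group counts as 1 sample. Of 138 comparisons of a member's columns within a pool, 5 differed at an adjusted chi-square p below 0.05, among them Rps28, Rps14 and Rps2 in the e5UTR IP pool. Markers of sensory neurons were enriched in the IP: 7 of 10 rose and 1 fell, with a summed level of 2213 and 2242 counts scaled to library size (CPM) in the input pools and 5143 and 5290 CPM in the IP pools. Markers of the other cells fell, 4 of 5 for Schwann cells, 3 of 4 for satellite glia (1 rose), 4 of 5 for macrophages, 4 of 4 for fibroblasts and 4 of 4 for red blood cells. Schwann cell markers summed to 1040 and 1071 CPM in input against 251 and 234 CPM in IP. Red blood cell globins held 5034 and 4924 counts in input and 13 and 19 in IP. The input thus also held RNA of these other cells.

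Most small subunit mRNAs had a lower ratio of ribosome-bound RNA to input than the median tested gene. Of the 35 tested members 31 fell and 2 rose in IP, where 69.7% of all 8085 tested genes changed, 36.2% falling and 33.5% rising (edgeR quasi-likelihood test on the 4 pools, 2 IP against 2 input, TMM scaling, Benjamini-Hochberg adjusted p below 0.05). The median log2 ratio of IP to input was -0.56 over the members and 0.06 over all tested genes, so the median member lay 1.53-fold below the median gene. Of the 35 members, 33 lay below the median gene. Rps3a3, among the 31 and the 33, had 0 counts in IP and passed the low-count filter through its input columns only. Among the 30 canonical genes 28 fell and 1 rose, with log2 ratios from -2.04 to 0.31 and a median of -0.54. Without the shGpr151 input pool 21 members fell and without the e5UTR input pool 20, with Rps3, Rps10, Rps15, Rps15a, Rps18, Rps20, Rps21, Rps24, Rps25 and Rps29 losing their call in both cases. In bulk samples, fewer cells of a type and less RNA per cell cannot be told apart.

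The sign of these values rests on the scaling. TMM sets the bulk of genes equal, whereas scaling to the library total moved the median of all genes to 0.99 and that of the members to 0.37, with 24 members higher and 3 lower against 62.2% and 23.4% of all tested genes (85.7% in either direction). The distance of the median member from the median gene was -0.62 on the log2 scale with either scaling, and the same count of members, 33 of 35, lay below the median gene. Changes are therefore given on the TMM scale and read relative to the median gene. The members held 5.30% (shGpr151) and 5.28% (e5UTR) of all counts in input, against 6.81% and 6.94% in IP. Their share of all counts was thus larger in IP, while the shares of most tested genes grew by a larger factor.

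**Figure D1:**
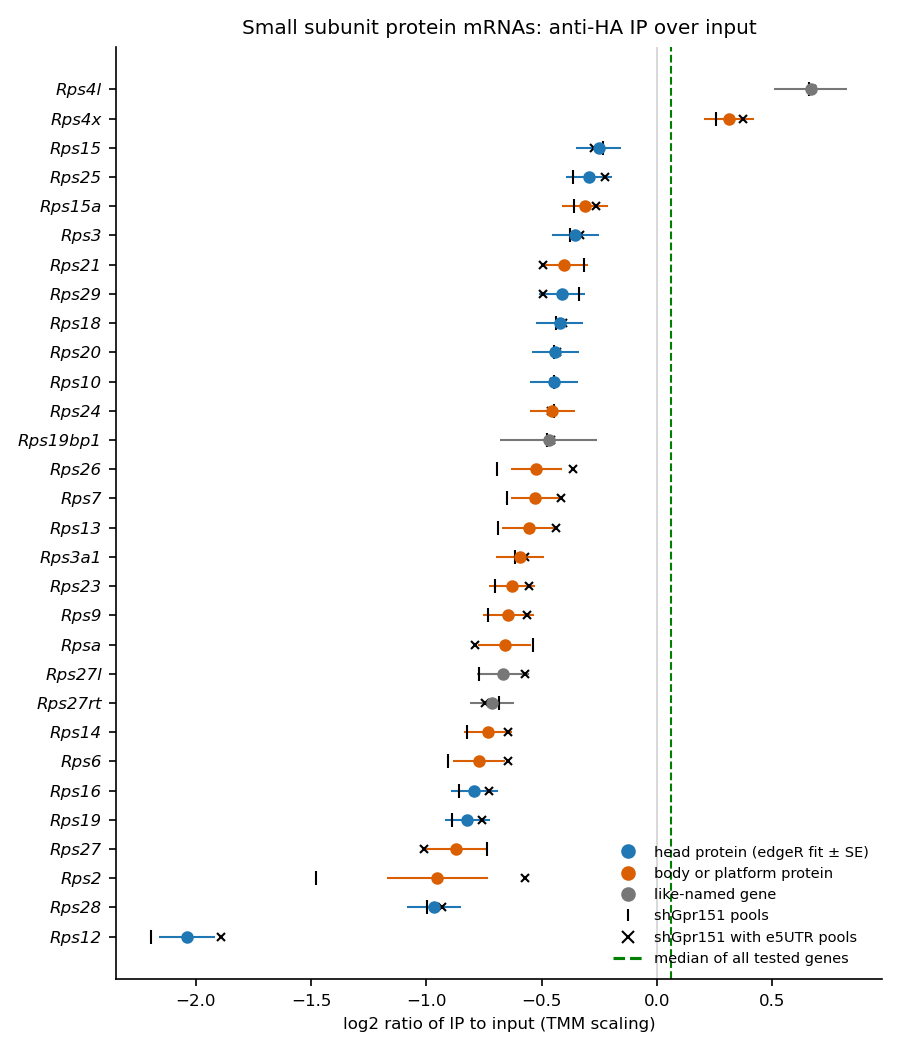
Log2 ratio of IP to input (x axis, TMM scaling) for 30 of the 35 tested members, one per line, as the edgeR estimate with its standard error; ticks and crosses are the ratios of the shGpr151 and the e5UTR pools. Rps3a3, with 0 counts in IP, is not drawn; 28 of the 30 points lie left of the green line that marks the median of all tested genes, and Rps12 has the lowest value.

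Proteins of the head and of the body or platform were compared as fixed lists. All 13 head genes fell, with a median log2 ratio of -0.45. Of the 17 body and platform genes 15 fell and 1 rose, with a median of -0.60. Of the 15 proteins with a bacterial counterpart 14 fell (median -0.48), and of the 15 without one 14 fell and 1 rose (median -0.60). The counts were close to each other in both divisions, and the difference between lists was not tested.

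Rps12 had the lowest ratio of the canonical members. This head protein, part of the beak of the subunit, had 667, 706 and 617 counts in input with shGpr151 and 551, 663 and 630 in input with e5UTR. The larger IP columns held fewer, 402, 393 and 378 with shGpr151 and 518, 490 and 459 with e5UTR. On the scaled level this is 932 and 868 CPM in input against 204 and 234 CPM in IP, and no IP column reached an input column. The log2 ratio was -2.04 ± 0.12 (SE, 2 pools a fraction; edgeR adjusted p = 2.6e-09), 4.28-fold below the median gene. It stayed lower with library-total scaling, at -1.11.

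Rps28 and Rps2 were also among the lower members. Rps28, a small head protein next to the mRNA exit channel, had 1521 and 1285 CPM in input against 761 and 673 CPM in IP, a log2 ratio of -0.97 ± 0.12 (edgeR adjusted p = 6.1e-06). Rps2, a protein of the mRNA entry channel, had 125 and 124 CPM in input against 45 CPM in IP with shGpr151 and 84 CPM in IP with e5UTR. Its input level was the lowest of the canonical members, and whether part of its reads was counted in other rows was not tested. Its log2 ratio was -0.95 ± 0.22 (adjusted p = 0.0015), with the widest standard error among the canonical members, and its 2 IP pools lay apart. With library-total scaling neither passed the test, Rps28 at -0.03 and Rps2 at -0.02.

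At the other end stood Rps4x and the pseudogene Rps4l. Rps4x, the X-linked gene for the body protein RPS4, had 413, 369 and 355 counts in input with shGpr151 and 338, 364 and 355 with e5UTR, then 1208, 1210 and 1244 in IP with shGpr151 and 1329, 1368 and 1327 with e5UTR. Its scaled level went from 533 and 498 CPM to 637 and 643 CPM, a log2 ratio of 0.31 ± 0.11 (edgeR adjusted p = 0.020), so it was the canonical member that rose. The call was lost with DESeq2 (adjusted p = 0.11), without the shGpr151 input pool (adjusted p = 0.17) and without the e5UTR input pool (adjusted p = 0.33). Rps4l rose from 40 and 47 CPM to 64 and 74 CPM (0.67 ± 0.16, adjusted p = 0.0020).

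Rps19bp1, which had 43 to 92 counts in a pool, did not pass the test, at -0.47 ± 0.21 (edgeR adjusted p = 0.060). Rps15, a head protein near the decoding site, was the called member nearest to 0 at -0.25 ± 0.10 (adjusted p = 0.033), and it lost its call with DESeq2 (adjusted p = 0.0997) and with a treatment term (adjusted p = 0.12).

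**Figure D2:**
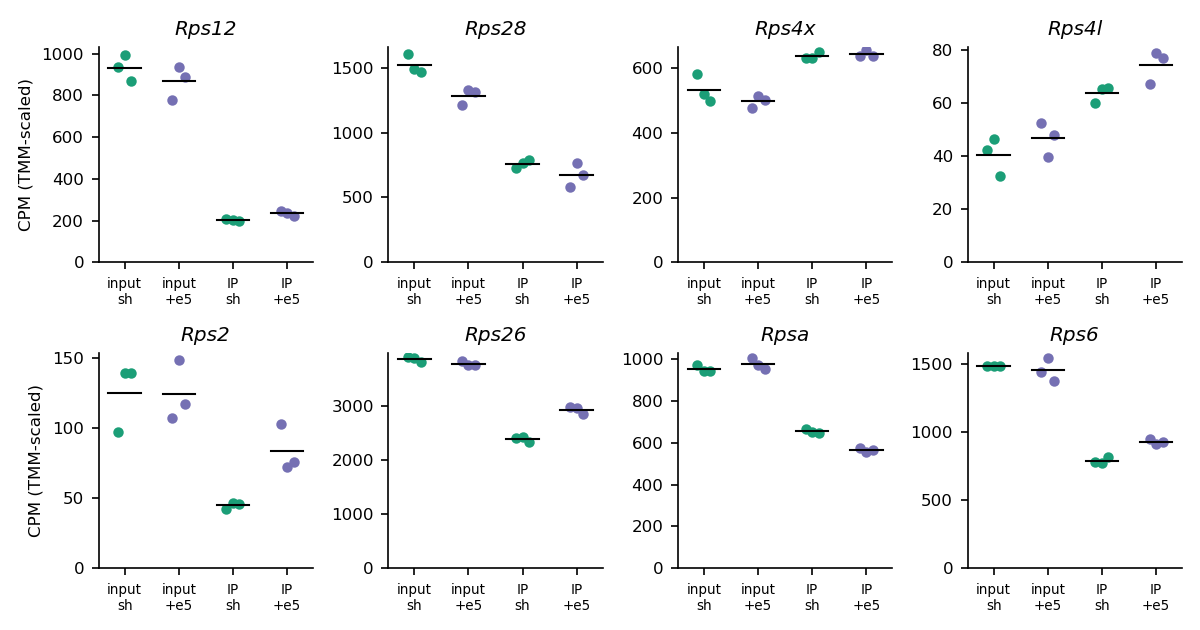
Scaled level in CPM (y axis, from 0) of 8 members in each of the 12 deposited columns, with green points for shGpr151, purple points for e5UTR and a bar for the level of the pool. Rps12 shows no overlap of input and IP columns, Rps4x and Rps4l are higher in IP, Rps2 and Rps26 are lower in IP with shGpr151 than in IP with e5UTR, and Rpsa is higher in the first of these.

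Genes chosen for their known roles lay between these ends. Rps6, whose protein is the classic target of the S6 kinases, went from 1481 and 1452 CPM in input to 790 and 928 CPM in IP (log2 ratio -0.77 ± 0.11, edgeR adjusted p = 3.2e-05). Rps3, at the mRNA entry site, went from 1267 and 1274 CPM to 977 and 1010 CPM (-0.36 ± 0.10, adjusted p = 0.0071). Both thus fell with no overlap of their pools.

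RPS10, RPS25 and RPS26 are often studied as proteins whose presence can vary between ribosomes. Rps10 went from 1183 and 1141 CPM to 869 and 838 CPM, a log2 ratio of -0.45 ± 0.10 (edgeR adjusted p = 0.0017). Rps25 went from 3220 and 3176 CPM to 2498 and 2716 CPM, a log2 ratio of -0.29 ± 0.10 (adjusted p = 0.017). Rps26 went from 3858 and 3771 CPM to 2383 and 2925 CPM, a log2 ratio of -0.52 ± 0.11 (adjusted p = 9.1e-04). These log2 ratios lay in the range of the other members. Rps19, the gene most often mutated in Diamond-Blackfan anaemia, went from 5053 and 4985 CPM to 2728 and 2948 CPM (-0.82 ± 0.10, adjusted p = 4.6e-06). Rpsa, whose protein is also known as the laminin receptor, went from 950 and 976 CPM to 654 and 564 CPM (-0.66 ± 0.11, adjusted p = 1.4e-04). Of the members given by range only, Rps7, Rps9, Rps13, Rps14, Rps15a, Rps16, Rps18, Rps20, Rps21, Rps23, Rps24, Rps29 and Rps3a1 all fell, between Rps16 at -0.79 and Rps15a at -0.31.

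The subunit also holds 3 proteins outside the members. Fau, which encodes RPS30 behind a ubiquitin-like leader, fell by 0.26 on the log2 scale (edgeR adjusted p = 0.041) and Rps27a, a fusion of ubiquitin with a subunit protein, fell by 0.49 (adjusted p = 0.0020). Rack1, a signalling scaffold on the head, stood at 0.18 and did not pass the test (adjusted p = 0.18). For the tagged protein itself, Rpl22 fell by 0.83 (adjusted p = 2.2e-05), while Avil, which encodes advillin, rose by 1.92 (adjusted p = 2.6e-07).

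Other parts of the translation system took other positions on the same scale. Of 48 tested large subunit genes 31 fell and 6 rose, with a median log2 ratio of -0.37. Of 5 elongation factor genes, which are TOP mRNAs too, 3 rose and 1 fell, with a median of 1.36. Among 40 tested assembly factors of the small subunit, which act in the nucleolus and cytoplasm before a subunit is mature, 24 rose and 5 fell, with a median of 0.89. Of 28 mitochondrial small subunit genes 9 fell and 3 rose (median -0.18), and of 17 regulators of ribosomal protein mRNA translation 7 rose and 5 fell (median 0.20). These are descriptions of lists, and the difference between them was not tested. Markers of non-neuronal cells moved in the same direction as the members, and their part in the members' ratios was not tested.

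**Figure D3:**
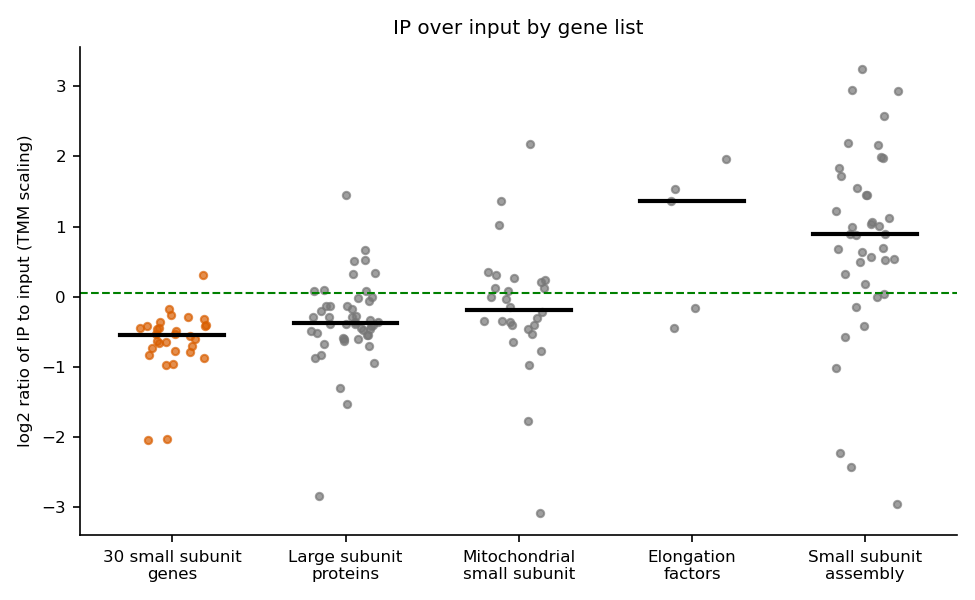
Log2 ratio of IP to input (y axis, TMM scaling) of each tested gene in 5 lists, with a bar at the median and a dashed line at the median of all tested genes. The canonical small subunit genes (median -0.54) and the large subunit genes (median -0.37) lie mostly below the line, and the elongation factors (1.36) and the assembly factors (0.89) mostly above.

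Several members share sequence with a copy elsewhere in the genome, and no source used here says how the authors divided reads between such copies. The clearest case is Rps27, a body and platform protein with a zinc finger, and its near copy Rps27rt. Their annotated RNA starts are shown with the shared run in capitals.
Rps27: cCTTTCCGGCGGTGACGACCTCCCT
Rps27rt: CTTTCCGGCGGTGACGACCTCCCTa
They lie at chr3:90213599-90213898 and chr9:114982690-114982989 (both minus strand, GRCm38.p6). The run shown covers 24 bases, and the longest run shared by the windows is 38 bases. Rps27rt held 97.1%, 97.0%, 97.2% and 97.5% of the counts of the pair in the 2 input and the 2 IP pools. Counts of each alone are therefore uncertain. Rps27 fell by 0.87 (edgeR adjusted p = 5.6e-05), Rps27rt by 0.72 (adjusted p = 1.6e-05) and their sum by 0.72 (adjusted p = 1.5e-05), with 131 and 137 against 79 and 68 CPM for Rps27 and 4366 and 4384 against 2717 and 2613 CPM for Rps27rt. Rps27l, a more distant relative induced by p53, went from 1274 and 1287 CPM to 745 and 866 CPM (-0.67 ± 0.11, adjusted p = 1.1e-04).

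The other copies differed in how far they followed their parent. The pseudogene row Rps13-ps1 had 3241 and 3326 counts in input and 7399 and 8054 in IP, more than Rps13 itself with 2793 and 2778 against 4673 and 6040, and summing the Rps13 rows gave a log2 ratio of -0.40 in place of -0.56. Rps3a3 had 53 and 31 counts in input and 0 in both pools of the IP, at least 47.6-fold lower with shGpr151 and at least 30.4-fold lower with e5UTR against a floor of 3 counts per pool. It passed the low-count filter through its input columns only. Rps3a2 had 20 and 23 counts against 8 and 6, and Rps12l1 had 8 and 6 against 3 and 1. Rps6-ps4 had 201 and 199 counts in input and 106 and 198 in the deeper IP pools, a log2 ratio of -1.90 against -0.77 for Rps6. Rps13-ps2 had 42 and 34 counts in input and 15 in each IP pool, so it passed the low-count filter through its input columns. When the rows of like name were summed with their parents, 29 of the 31 members that fell still did, the other two being Rps27rt and Rps3a3, now part of their parents' rows.

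**Figure D4:**
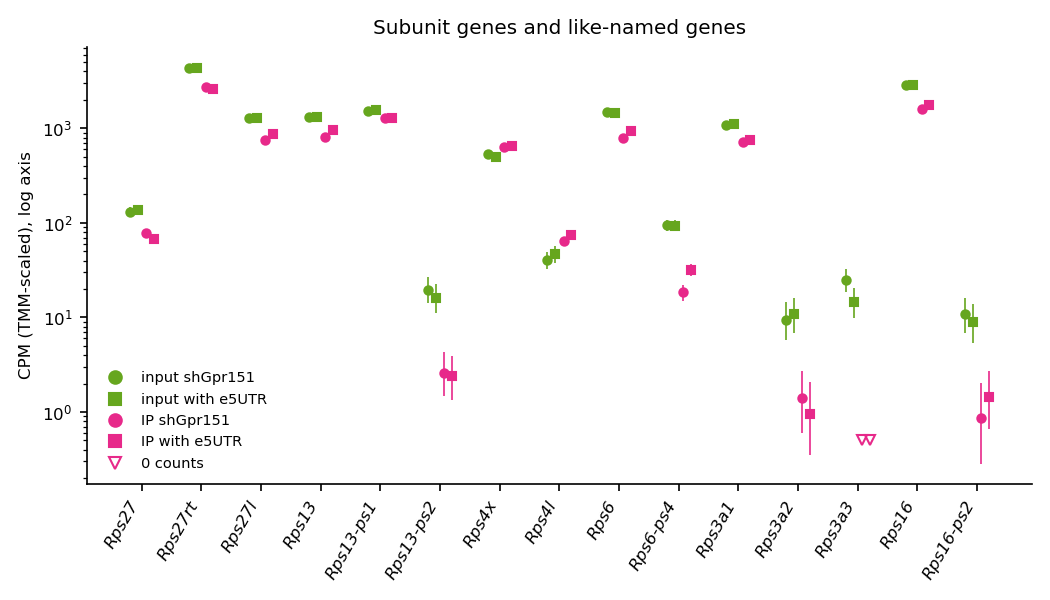
Scaled level in CPM (y axis, log scale) of subunit genes and the rows of like name in the 4 pools, with exact Poisson 95% intervals; green marks are input, magenta marks IP, and open triangles mark pools with 0 counts. Rps27rt lies above Rps27 in every pool, Rps13-ps1 lies above Rps13, and Rps3a3 has counts in input only.

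In input, the members' levels with e5UTR lay close to those with shGpr151 alone. There was 1 pool a group, so ratios of e5UTR to shGpr151 carry an exact binomial 95% interval (Clopper-Pearson) that covers counting error only, and no test of the condition was possible. A ratio at least 25% above 1, or 20% below, was taken as a difference. One tested member, Rps3a3 (53 and 31 counts), passed it, against 35.1% of all tested genes, most of which have far fewer counts than the members. Among the 397 genes with at least 3000 counts over both pools 0.756% passed it, and their median ratio was 1.00, as was that of the 29 members among them. The members' ratios were above 1 in 17 and below 1 in 18.

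Rps28 had the lowest input ratio of the canonical members. It had 1144, 1058 and 1044 counts with shGpr151 and 858, 943 and 928 with e5UTR, a ratio of 0.845 (0.802 to 0.889) with no overlap of columns. Rps12 stood at 0.931 (0.873 to 0.992) and Rps9, a body protein, at 1.05 (1.01 to 1.10). A read-level test (edgeR over the 12 columns), which compares these libraries and not the conditions, called 0 of 35 members, 0.198% of all genes and 1.76% of the abundant ones.

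In the ribosome-bound fraction the members moved apart by modest amounts. One tested member, Rps2, passed the same threshold, against 33.2% of all tested genes. Of the 498 genes with at least 3000 counts 11.8% passed it, 2.21% higher and 9.64% lower. Ratios ran from 0.863 to 1.86. The median of the 29 members with at least 3000 counts was 1.05 and that of all 498 such genes 1.04. Ratios were above 1 in 24 members and below 1 in 10 with TMM scaling, and the split was 17 and 17 with median-of-ratios scaling, under which the all-gene split also moved, from 4005 above and 4071 below to 3248 and 4828. A common rise of the members is thus not separable from the scaling.

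Rps2, the canonical member with the lowest level in input, had the largest ratio. Whether part of its reads was counted in other rows was not tested. Its columns in IP were 81, 89 and 88 counts with shGpr151 and 214, 151 and 158 with e5UTR, which do not overlap, and the ratio was 1.86 (1.60 to 2.17). The e5UTR columns spread more than counting noise (chi-square, adjusted p = 0.030). In input its columns overlapped, at 69, 99 and 99 against 76, 105 and 83, with a ratio of 0.993 (0.835 to 1.18). Without each column in turn and under each scaling its log2 ratio in IP stayed between 0.72 and 1.00.

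Rps26 followed with 4605, 4644 and 4459 counts against 6185, 6165 and 5952, a ratio of 1.23 (1.20 to 1.26), while its input ratio was 0.977 (0.948 to 1.01). Its protein lies at the mRNA exit channel. Rps13 and Rps9 had IP ratios of 1.19 each, Rps6 of 1.18 and Rps27l of 1.16. The Rps13 value is for its own row. With its pseudogene rows the IP counts, not scaled for depth, were 12087 (shGpr151) and 14109 (e5UTR, the deeper pool). The pseudogene rows held 61.3% and 57.2% of these. The scaled ratio of the summed rows is thus below 1.19, and the ratio of Rps13 alone is uncertain. Outside the members, Fau had 1.17, and Rps27a stood at 1396 CPM with shGpr151 and 1747 CPM with e5UTR.

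Lower with e5UTR in IP was Rpsa, with 1272, 1247 and 1241 counts against 1199, 1154 and 1177, although the e5UTR pool was the deeper one. Its ratio was 0.863 (0.824 to 0.904) in IP and 1.03 (0.965 to 1.09) in input. Rps29, a zinc-binding head protein, had 15314, 15686 and 15665 counts against 14726, 14991 and 14836, a ratio of 0.878 (0.866 to 0.889). Rps27 at 0.863 (0.754 to 0.987), Rps28 at 0.885 and Rps21 at 0.891 also lay below 1. Head, body and platform genes stood on both sides of 1, with 9 of 13 head genes and 13 of 17 body and platform genes above it.

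**Figure D5:**
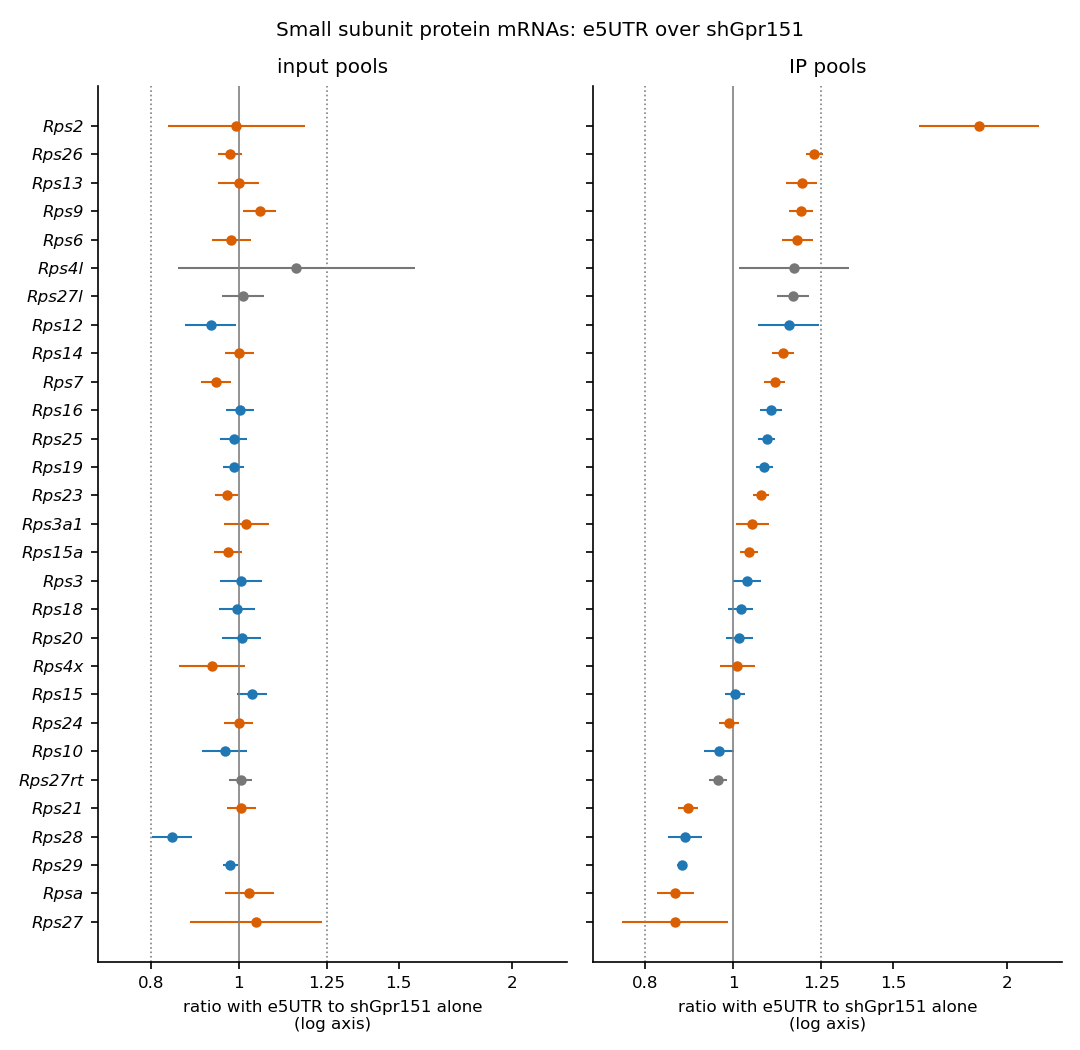
Ratio of e5UTR to shGpr151 pools (x axis, log scale) for 29 of the 35 tested members in input (left) and IP (right), with exact binomial 95% intervals that cover counting error only; blue marks head proteins, orange body or platform proteins, grey like-named genes, and dotted lines the threshold of 25% above or 20% below 1. Input ratios cluster at 1, IP ratios spread from 0.863 (Rps27, Rpsa) to 1.86 (Rps2), and Rps3a3 and Rps19bp1, with few counts, are not drawn.

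The same read-level test called, in IP, 19 of the 35 members, 16 higher and 3 lower with e5UTR, against 11% of all tested genes and 61.6% of the 498 abundant ones (edgeR over 12 columns, adjusted p below 0.05). The members' share was thus near that of abundant genes. Applied to the difference of the e5UTR ratio between IP and input, it called 16 members, against 5.11% of all tested genes and 36.6% of the 773 genes with at least 3000 counts over the 4 pools. Beside these ratios, satellite glia markers summed to 269 CPM in IP with shGpr151 and 252 CPM with e5UTR, and sensory neuron markers to 5143 and 5290 CPM. In the same order, Schwann cell markers summed to 251 and 234 CPM and macrophage markers to 53 and 67 CPM. Fibroblast markers summed to 52 and 63 CPM and red blood cell globins to 2.3 and 3.0 CPM, so the non-neuronal lists did not move together. Their part in the members' ratios was not tested.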

How the data were processed

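RNA of 12 RiboTag libraries was made into cDNA-PCR libraries with a barcoding kit (SQK-PCB112.24), per the labels' protocols. The authors deposited estimated counts per Ensembl gene as whole numbers. The submitters' processing notes name minimap2, Salmon, GRCm39 and mm39, with no roles. No source used here gives counting settings or the handling of reads matching several genes. Symbols were found for 89.9% of IDs, and IDs without one held 11.0% of the counts over all columns. This loss was not even between fractions. In input, rows with a symbol held 2434590 of 2954427 counts (shGpr151) and 2409876 of 2928926 (e5UTR). In IP they held 3842531 of 4145071 (shGpr151) and 4280651 of 4549204 (e5UTR). Rows without a symbol thus held a larger share of the counts in input than in IP.

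Columns of a group were summed to a pool (totals 2928926 to 4549204). IP was tested against input with edgeR 4.0.16 (R 4.3.3, limma 3.58.1; quasi-likelihood, TMM factors 0.722 to 1.39, filterByExpr with minimum count 10 and total 15 over the 12 columns, 8085 genes, Benjamini-Hochberg over all, threshold 0.05). The fit was tested on simulated data. Nothing says that columns came from separate animals or cultures, and p-values measure only the spread between pools. DESeq2 1.42.0, other scalings and left-out columns or pools were alternatives. Intervals and the floor of 3 counts cover counting error only, since PCR reads are not independent molecules.

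Members and lists were chosen with earlier results of these data known. Named were Rpsa, the 4 highest and 4 lowest IP ratios, like-named copies, the 2 largest e5UTR ratios each way per fraction (at least 300 counts), and Rps3, Rps6, Rps10, Rps25 and Rps26. Other members are given by value where a result turns on them. Values of some members are not reported here, though counts and medians include them. Replicate numbers did not pair the columns (r from -0.19 to 0.20 for equal numbers, -0.21 to 0.25 for others).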

Additional observations from a re-analysis of the deposited data

Results flagged for a closer look

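For 16 members the e5UTR ratio differed between IP and input in the interaction term of the edgeR test on the reads (12 columns, adjusted p below 0.05), which compares the reads of the pools and not the conditions. Given here is the ratio in IP divided by the ratio in input. It was above 1 in 13 members: Rps2 at 1.88, Rps26 at 1.26, Rps12 at 1.24, Rps6 at 1.20, Rps13 at 1.19, Rps7 at 1.18, Rps27l at 1.15, Rps14 at 1.13, Rps9 at 1.12, Rps23 at 1.11, and Rps16, Rps25 and Rps19 at 1.10 each. It was below 1 in Rpsa at 0.841, Rps21 at 0.885 and Rps29 at 0.898. The Rps13 value leaves out its pseudogene rows, which held most of the summed IP counts, and the value of the summed rows is lower. Of the 773 genes with at least 3000 counts, 36.6% were called by the same term.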

How the results depend on the processing

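With library-total scaling, 3 members fell and 24 rose, the members' median log2 IP ratio was 0.37, and the members that changed sign included Rps10 (0.49), Rps15 (0.68), Rps19 (0.11), Rps19bp1 (0.46), Rps25 (0.64), Rps26 (0.41), Rps27 (0.061), Rps27l (0.26), Rps27rt (0.22), Rps3 (0.58), Rps6 (0.16), Rps9 (0.29) and Rpsa (0.27). The alternative's own construction, a shift of all log2 ratios by 0.93, sets this. Of the members, 33 of 35 lay below the median gene under each alternative except summed copies (31), which merge rows. With a treatment term added, 28 members fell, and Rps15, Rps15a and Rps25 lost their call. The number that rose was 1 with DESeq2, with copies summed (chosen after seeing the data) and without either input pool. Without the e5UTR input pool 20 fell and without the shGpr151 input pool 21, whereas 32 fell without either IP pool. In each case the lone pool is assumed to vary like the others. Over the 12 columns, the replicate block moved no call of a member between IP and input, and the number of all genes called went from 6194 to 6148. In input, members past the fold threshold were 2 without the low-count filter and 1 to 3 with a column left out. With a column left out the median log2 ratio ran from -0.027 to 0.018. In IP, 3 members were past the fold threshold without the filter. The edgeR test on reads used no fold threshold and called members by adjusted p below 0.05. In input it called 0 members, and 0 with the replicate block. In IP it called 19, and 20 with the replicate block. The median log2 ratio in IP was 0.085, with 0.072 for library totals, 0.0081 for median-of-ratios factors, 0.067 without the filter and 0.078 to 0.105 with a column left out. The members' share of counts in input was 6.44% (shGpr151) and 6.42% (e5UTR) over rows with a symbol, and 4.89% and 4.87% without Rps19bp1, Rps27l, Rps27rt and Rps4l. In IP it was 7.35% and 7.38%, and 6.32% and 6.45%. Where no cause is named, the cause was not tested. With 1 pool a group, an e5UTR difference has no replicate check, and Rps3a3, Rps3a2 and Rps12l1 are at the limit of the depth.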
